A study of Mus musculus with 6 samples.

Results

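The genes examined here encode the epidermal growth factor (EGF) receptor family, its ligands and a pair of its inhibitors: the receptors Egfr, Erbb2 and Erbb3, the ligands Egf, Hbegf, Ereg, Btc and Tgfa, and the inhibitors Errfi1 and Lrig1. They were taken by name, as every probe set whose platform annotation gave exactly 1 gene symbol and that symbol was one of the 10. This gave 24 of 45037 probe sets, with all 10 genes represented. Expression was measured on 6 Affymetrix mouse arrays, 1 per uterine RNA sample. The 3 Ihh-ablated samples (Ihhd/d) had the genotype PRcre/+ Ihhf/f, in which Cre, driven from the progesterone receptor gene and so limited to cells that use it, removes floxed Indian hedgehog (Ihh), a secreted signal of the uterine epithelium. The 3 control samples (Ihhf/f) carried the same floxed alleles without ablation, and all samples were dated to day -1 of the artificial decidual response, in which hormones and a mechanical stimulus drive the stroma to differentiate as it does in pregnancy. No age, and no statement on pooling of mice, was given in the sources used here. The Cre was present in the ablated group alone, so that its presence and the loss of Ihh cannot be told apart.

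EGF family receptors are tyrosine kinases of the cell surface that pair up when a ligand binds and then signal through the RAS-ERK and PI3K-AKT cascades. The ligands are made as membrane-anchored precursors and released by metalloproteases. ERBB2 has no known ligand of its own and ERBB3 has little kinase activity, so both act mainly as partners in pairs with other receptors. In the mouse uterus this system carries signals between the epithelium and the stroma, and it takes part in oestrogen-driven growth and in implantation, where HB-EGF is an early mediator between blastocyst and luminal epithelium. ERRFI1 (also called MIG-6) binds the active kinase domain and blocks it, and is known as a progesterone-regulated brake on uterine growth. LRIG1 is a membrane protein that promotes degradation of the receptors.

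Median intensities of the arrays lay between 121.4 and 142.5. The epithelial, stromal and smooth muscle marker lists were all bright, as in whole uterus: 10 of 10 epithelial markers were measured and the dimmest had a percentile of 84.6 among all probe sets. Gli1, a transcript that reports Hedgehog signalling, averaged 72.0 ± 6.3 in Ihh-ablated and 419.0 ± 84.7 in control uteri (intensity, mean ± SD, n = 3 each; limma adjusted p = 0.000492). The Ihh probe set itself read 121.4, 93.3 and 135.4 in Ihh-ablated and 163.9, 162.3 and 140.2 in control uteri, without overlap. It did not pass the test (log2 difference -0.43, limma adjusted p = 0.164), and whether it lies in the deleted part was not tested. Some arrays carried transcripts of other tissues. The summed intensity of 8 exocrine pancreas markers was 73955 in Ihh-ablated replicate 2, against 922 and 1086 in the other Ihh-ablated arrays and 1085 to 2688 in control arrays. The sum of 8 skeletal muscle markers was 1680 to 2162 in Ihh-ablated arrays and 4381, 4883 and 14391 in control arrays, the highest in control replicate 3. Without Acta1, the skeletal alpha-actin, the other 7 summed to 518 to 573 in Ihh-ablated arrays and to 719, 822 and 8909 in control replicates 1 to 3, so that in control replicates 1 and 2 most of the higher sum was Acta1. The 6 adipocyte markers summed to 7091, 11842 and 19516 in Ihh-ablated arrays and to 1841, 4981 and 9526 in control arrays, so that these groups overlapped. Nothing in the labels says that each sample was a different mouse, and p-values therefore measure only how far these samples spread, possibly for technical reasons.

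The comparison of the genotypes asks which transcripts of the family differ in the uterus without Ihh. Errfi1 was higher in Ihh-ablated uteri by both of its probe sets. No probe set of a receptor or a ligand passed the test, although every Ihh-ablated array lay below every control array at 3 Egfr probe sets, and above every control array at both Hbegf probe sets. Differences are given as log2 of Ihh-ablated over control with the standard error (SE) of the limma fit, and a probe set was called at a Benjamini-Hochberg adjusted p under 0.05 over all 33777 tested probe sets. Of the 24 probe sets, 20 passed the filter on low values and were tested, 2 were called higher and 0 lower, and 7 (35%) had an unadjusted p under 0.05, as did 22.9% of all tested probe sets. Over the whole array 2.14% of tested probe sets were called, 1.03% higher and 1.11% lower. Taken by the brightest probe set, 1 of 9 tested genes was called, against 2.81% of all tested genes (1.28% higher). The groups did not overlap in 9 of the 20 probe sets, 6 of them higher and 3 lower, against 31.0% of all tested probe sets (13.1% higher and 17.9% lower). The median log2 difference was 0.04 over the 20 probe sets and -0.04 over all tested probe sets.

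**Figure D1:**
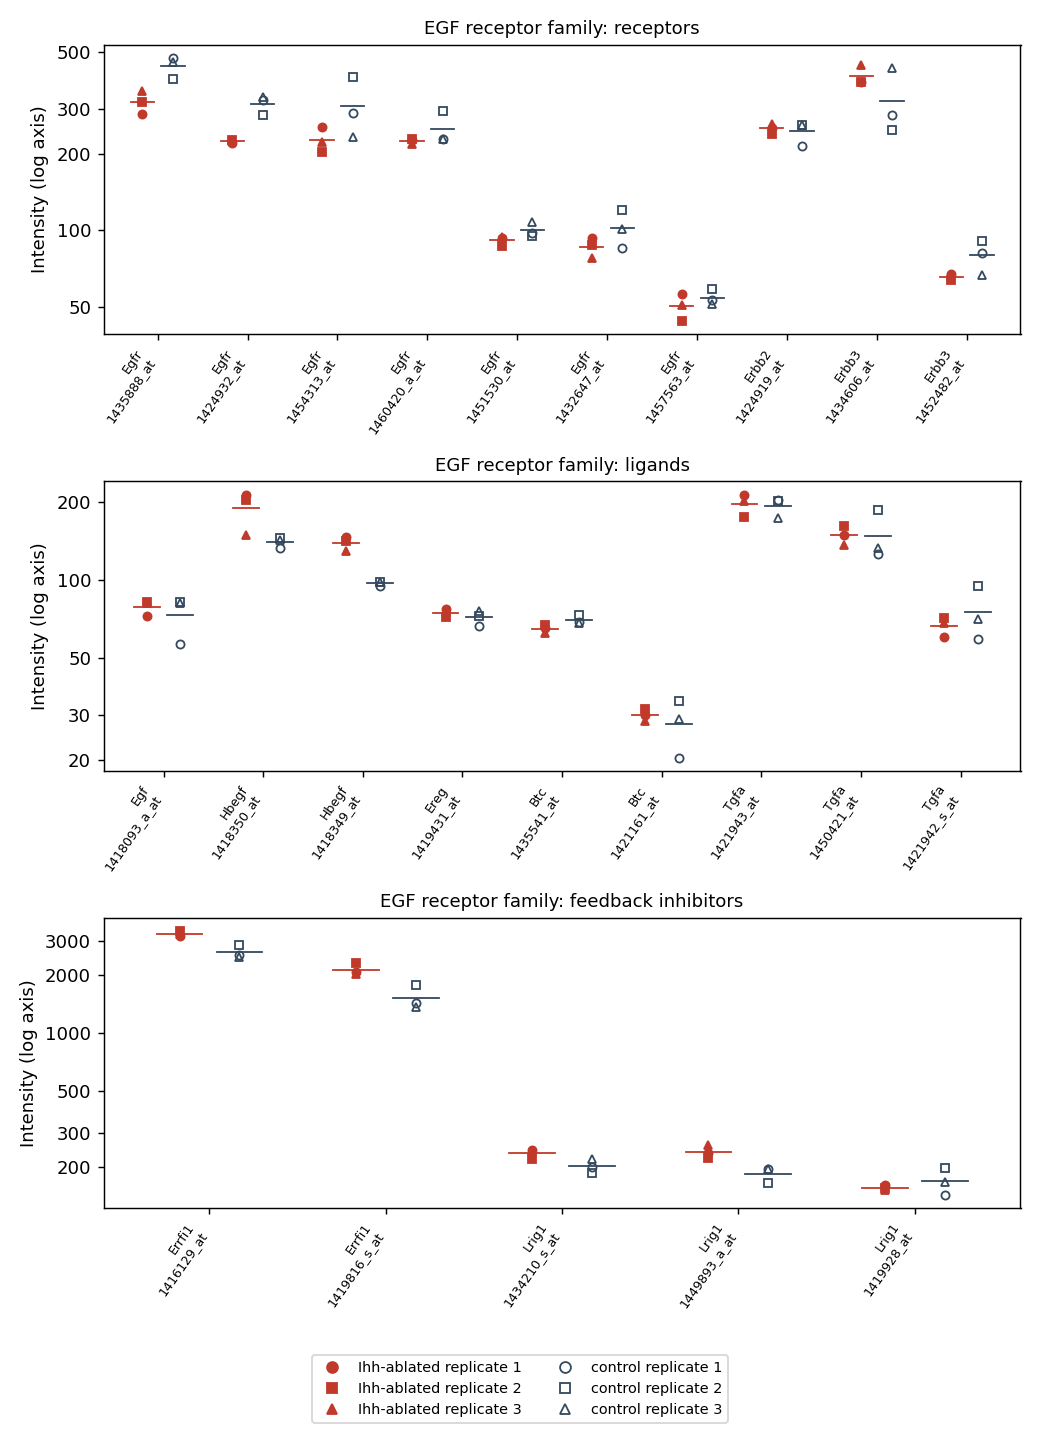
Intensity of each of the 24 probe sets on a log axis, with 1 point per array (filled red for Ihh-ablated, open blue for control) and a line at each group's mean. Both Errfi1 and both Hbegf probe sets have all Ihh-ablated points above all control points, and the 2 brightest Egfr probe sets have them all below.

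Errfi1, the cytoplasmic inhibitor of the receptor kinase, rose in Ihh-ablated uteri. Its probe set 1416129_at read 3215, 3384 and 3293 in Ihh-ablated replicates 1 to 3, against 2557, 2867 and 2487 in control replicates 1 to 3. The groups did not overlap, and control replicate 2 was the nearest to the Ihh-ablated arrays. The means were 3297 ± 84 and 2637 ± 202 (SD, n = 3 each) in Ihh-ablated and control uteri, a 1.25-fold rise (log2 0.32, SE 0.06, limma adjusted p = 0.0391). The second probe set, 1419816_s_at, read 2081, 2303 and 2036 in Ihh-ablated uteri and 1436, 1779 and 1361 in control uteri. Replicate 2 was the highest array of each group at both probe sets. This was a 1.41-fold rise (log2 0.50, SE 0.10, 95% interval 0.27 to 0.73, limma adjusted p = 0.0445). Both calls were lost without Ihh-ablated replicate 1 (adjusted p = 0.117 and 0.124), replicate 2 (0.120 and 0.128) or replicate 3 (0.124 and 0.106) and without control replicate 1 (0.141 and 0.154), and both were lost after quantile normalization (0.0847 and 0.0834), while the difference stayed above 0 in all 17 alternatives for both probe sets (0.27 to 0.42 and 0.36 to 0.61). Both calls were kept without control replicate 2 (0.0378 and 0.0244) and without control replicate 3 (0.0334 and 0.0351).

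The sequences before the Errfi1 start sites are shown because Errfi1 was the member that passed the test, and that of Egfr because its 2 brightest probe sets lay lower without overlap. Promoter sequences of 7 of the 10 members were found in the RefSeq table of build GRCm38.p6, and Errfi1 had 2 start sites there. Each line gives the 250 bases before a start, 5′ to 3′ on the plus strand. Both Errfi1 windows lie on chromosome 4, at chr4:150853546-150853795 and chr4:150854820-150855069, and that of Egfr at chr11:16751953-16752202. Capitals mark matches to the cyclic AMP response element TGACGTCA, the TATA box TATAAA and the CCAAT box CCAAT, each searched on both strands.
Errfi1, upstream start: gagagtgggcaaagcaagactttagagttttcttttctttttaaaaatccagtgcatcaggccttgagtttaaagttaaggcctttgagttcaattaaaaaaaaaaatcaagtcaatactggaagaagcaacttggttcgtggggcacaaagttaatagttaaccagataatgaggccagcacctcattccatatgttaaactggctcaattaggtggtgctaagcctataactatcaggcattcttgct
Errfi1, downstream start: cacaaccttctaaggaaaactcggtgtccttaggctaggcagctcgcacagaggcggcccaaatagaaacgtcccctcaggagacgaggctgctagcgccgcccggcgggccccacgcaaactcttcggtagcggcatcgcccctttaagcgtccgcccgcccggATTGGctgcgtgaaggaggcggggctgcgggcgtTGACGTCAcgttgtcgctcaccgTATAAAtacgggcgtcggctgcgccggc
Egfr: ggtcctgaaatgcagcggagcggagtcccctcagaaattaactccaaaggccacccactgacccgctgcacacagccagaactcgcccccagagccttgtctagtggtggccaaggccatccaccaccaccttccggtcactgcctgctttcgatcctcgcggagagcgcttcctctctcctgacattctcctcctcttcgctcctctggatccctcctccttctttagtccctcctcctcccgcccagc

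The downstream Errfi1 window held all of these motifs, without overlap between them. The response element ended 44 bases before the start, the TATA box 23 bases before it, and the CCAAT box, on the opposite strand, 81 bases before it. Over all 32851 promoter windows of this length, 1.55% held the response element, 12.4% the TATA box and 33.8% the CCAAT box. The upstream Errfi1 window and the Egfr window held none of them. The GLI binding site GACCACCCA, searched on both strands, had no match in these windows and one in 0.225% of all windows. Likewise the steroid receptor half-site AGAACA was not found in them, against 16.1% of all windows. Guanine and cytosine made up 38% of the upstream Errfi1 window, 64.8% of the downstream one and 60.8% of the Egfr window. A match of letters is a description of the sequence and does not show that a factor binds there.

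Lrig1, the membrane protein that lowers receptor levels, had 3 tested probe sets and no call. Probe set 1449893_a_at read 237.8, 224.0 and 262.7 in Ihh-ablated uteri, against 195.9, 165.0 and 194.9 in control uteri. The groups did not overlap, and the log2 difference of 0.38 (SE 0.12, limma adjusted p = 0.126) did not pass. The brightest probe set, 1434210_s_at, read 245.1, 222.0 and 244.6 in Ihh-ablated and 200.8, 186.3 and 219.7 in control uteri, a difference of 0.23 (adjusted p = 0.255). The third, 1419928_at, had the other sign at -0.10 (adjusted p = 0.666), with overlapping groups, so the Lrig1 probe sets disagreed.

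Egfr, the receptor shared by all 5 ligands of this set, had 7 probe sets, of which 6 were tested and all 6 were below 0. The brightest, 1435888_at, read 285.1, 319.8 and 351.8 in Ihh-ablated uteri, against 475.9, 392.8 and 459.7 in control uteri. Every Ihh-ablated array lay below every control array, and the means of 318.9 ± 33.4 and 442.8 ± 44.1 (SD, n = 3 each) in Ihh-ablated and control uteri gave a log2 difference of -0.47 (SE 0.12, 95% interval -0.74 to -0.21, limma adjusted p = 0.0795; called with array weights only, 0.0270). Probe set 1424932_at read 219.7, 227.1 and 223.6 in Ihh-ablated uteri, a narrow range, and 323.6, 282.5 and 332.7 in control uteri. Its difference was -0.48 (SE 0.11, 95% interval -0.72 to -0.24, limma adjusted p = 0.0561), which passed without control replicate 2 (-0.55, 0.0374), with the lowest 50% of probe sets left out (0.0475) and with array weights (0.0147), and did not pass in the other 14 alternatives. Probe set 1451530_at also had groups without overlap, at 93.3, 87.0 and 94.3 in Ihh-ablated and 97.8, 94.6 and 107.8 in control uteri, but the difference was only -0.13 (adjusted p = 0.522). It was designed on the same accession as 1424932_at, and the intervals of both differences overlapped (-0.40 to 0.14 for the dimmer one). The other tested probe sets read -0.41 (1454313_at, adjusted p = 0.234), -0.23 (1432647_at, 0.369) and -0.15 (1460420_a_at, 0.490), all with overlapping groups. Control replicate 2 was the highest array at each of these, and without it they read -0.20, -0.11 and -0.03. Without the same array, 1435888_at, 1424932_at and 1451530_at lay further below 0, at -0.56, -0.55 and -0.17. Probe set 1457563_at fell in the lowest 25% by intensity and was not tested (43.9 to 56.0 in Ihh-ablated and 51.1 to 58.6 in control uteri). In whole uterus, fewer cells of a type and less RNA per cell cannot be told apart.

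Erbb2, the receptor without a ligand of its own, read 253.3, 238.9 and 261.4 in Ihh-ablated uteri and 214.5, 259.8 and 258.7 in control uteri. The groups overlapped, and the log2 difference of 0.04 had a 95% interval of -0.22 to 0.31 (limma adjusted p = 0.829). Erbb3, the partner receptor with little kinase activity, read 383.7, 383.2 and 447.5 in Ihh-ablated uteri by probe set 1434606_at, against 284.9, 246.8 and 434.3 in control uteri. Control replicate 3 lay within the Ihh-ablated range and the other control arrays lay below it. The difference of 0.37 (SE 0.19, limma adjusted p = 0.273) did not pass, and without control replicate 3 it was 0.61 (adjusted p = 0.0202). Its dimmer probe set 1452482_at read 63.8 to 67.2 in Ihh-ablated and 67.0 to 90.4 in control uteri, with the opposite sign (-0.27, adjusted p = 0.280).

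The summed intensity of the epithelial markers was 17482, 17390 and 19204 in Ihh-ablated replicates 1 to 3 and 12333, 14488 and 18236 in control replicates 1 to 3. This sum ranked the arrays as the brighter Erbb3 probe set did, apart from control replicates 1 and 2, which changed places. Single markers did not all share that order. In control replicate 3, Elf3 (653.3) lay below every Ihh-ablated array (710.0 to 1090.1), while Krt8 (2475.2) was the highest of all arrays. Of the 10 markers, 3 were higher in every Ihh-ablated array than in every control array, 0 were lower, and 0 passed the test. Over all tested genes the groups did not overlap in 32.3% (13.3% higher). With the epithelial marker mean as a covariate the log2 differences were -0.10 for Erbb3 (limma adjusted p = 0.951), 0.38 and 0.61 for Errfi1 (0.284 and 0.258) and -0.51 and -0.54 for the 2 brightest Egfr probe sets (0.635 and 0.452). With the adipocyte marker mean in its place they were 0.08 for Erbb3 (0.900), 0.32 and 0.52 for Errfi1 (0.343 and 0.333) and -0.53 and -0.50 for Egfr (0.435 and 0.429). None of these probe sets was called with either covariate. Each covariate uses 1 of the 4 residual degrees of freedom, and over the whole array 64 probe sets were called with the epithelial and 23 with the adipocyte marker mean. Both covariates were chosen after seeing the data.

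**Figure D2:**
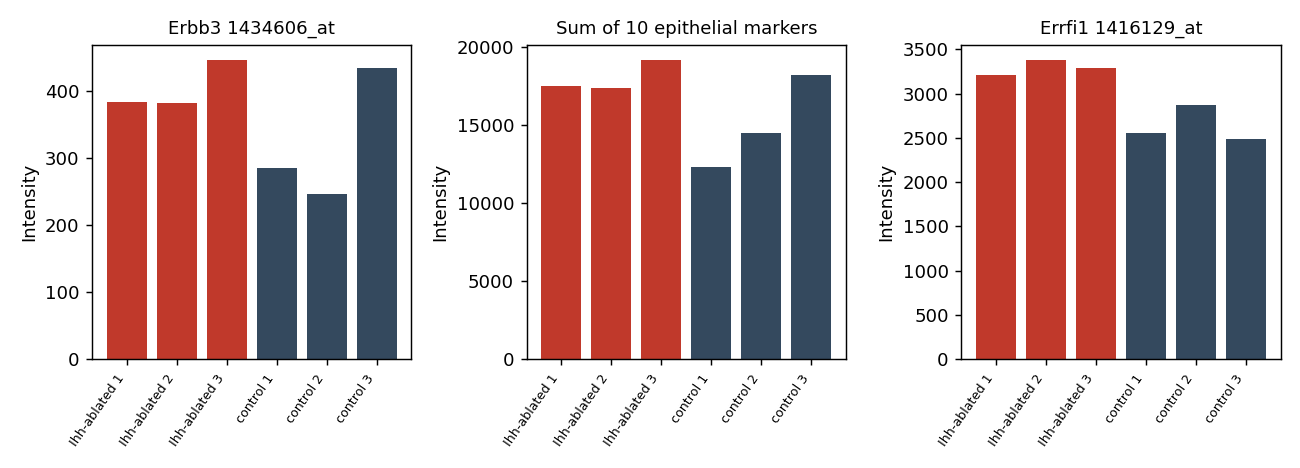
Bars give the intensity per array (red, Ihh-ablated; blue, control; linear axes from 0) of Erbb3 1434606_at, of the sum of 10 epithelial markers and of Errfi1 1416129_at. Control replicate 3 stands with the Ihh-ablated arrays for Erbb3 (434.3) and for the epithelial sum (18236), but is the lowest array for Errfi1 (2487).

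Among the ligands, Hbegf, the heparin-binding growth factor of implantation, differed most. Probe set 1418349_at read 147.1, 142.2 and 129.6 in Ihh-ablated uteri and 94.9, 98.3 and 98.4 in control uteri. All Ihh-ablated arrays were above all control arrays, and the means of 139.6 ± 9.1 and 97.2 ± 2.0 (SD, n = 3 each) in Ihh-ablated and control uteri gave a log2 difference of 0.52 (SE 0.12, 95% interval 0.26 to 0.78, limma adjusted p = 0.0560). It passed in 4 of 16 alternatives and not in the others (limma adjusted p up to 0.647). The 4 were array weights (0.0209), median-centred arrays (0.61, 0.0340), quantile normalization (0.62, 0.0318) and removal of control replicate 3 (0.0396). The brighter probe set, 1418350_at, read 214.2, 204.4 and 149.9 in Ihh-ablated uteri. Replicate 3 lay close to the control values of 132.7, 145.0 and 143.4. The log2 difference of this probe set was 0.42 (SE 0.15, limma adjusted p = 0.160), and it was called in 0 of 17 alternatives.

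The other ligands were closer between the genotypes. Tgfa, which encodes transforming growth factor alpha, read 214.3, 175.1 and 201.6 in Ihh-ablated uteri and 204.0, 202.0 and 174.5 in control uteri by its brightest probe set. These groups overlapped, with a log2 difference of 0.02 and a 95% interval of -0.26 to 0.31 (limma adjusted p = 0.917). Another Tgfa probe set differed by 0.03 (adjusted p = 0.912), and the third, 1421942_s_at, was not tested for its low intensity (60.0 to 71.5 in Ihh-ablated and 59.0 to 94.8 in control uteri). Egf itself read 72.6, 82.1 and 81.6 in Ihh-ablated and 56.3, 82.0 and 81.7 in control uteri, a difference of 0.12 with a 95% interval of -0.25 to 0.50 (adjusted p = 0.667). Control replicate 1 was low and the other 5 arrays lay close together, including the array with pancreas transcripts. Ereg, which encodes epiregulin, read 71.7 to 77.3 in Ihh-ablated and 66.6 to 76.1 in control uteri (0.06, adjusted p = 0.771). Neither probe set of Btc, betacellulin, passed the filter. The brighter one, 1435541_at, read 65.3, 66.8 and 62.4 in Ihh-ablated uteri and 69.0, 73.2 and 67.9 in control uteri, and the other lay between 20.4 and 33.8 on all arrays. Since no background is stated for this file, signals at this level were not shown to lie above it.

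**Figure D3:**
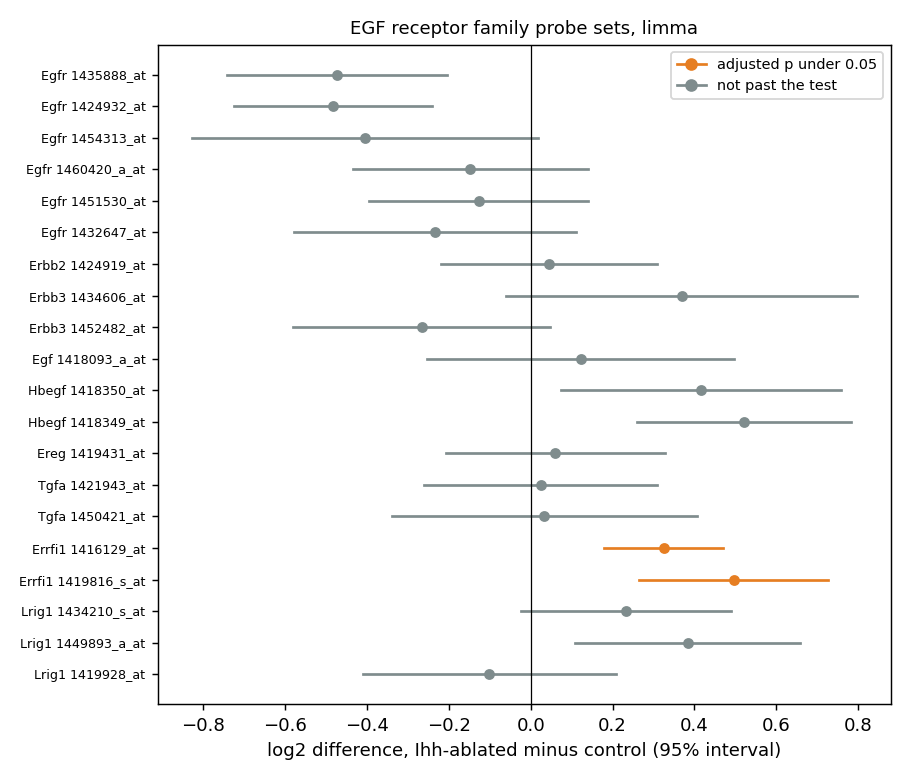
Log2 difference between Ihh-ablated and control uteri for the 20 tested probe sets, as a point with its 95% interval from limma. Orange marks an adjusted p under 0.05, reached by both Errfi1 probe sets (0.32 and 0.50), and grey the other 18.

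Genes whose values over the 6 arrays ran closest to those of Errfi1 were looked up among 15530 genes, by the root mean square difference of log2 values centred on each gene's own mean. The nearest were Plvap (0.04), a protein of endothelial fenestrae, Crebl2 (0.05), Mcrip2 (0.05), the secreted BMP antagonist Nbl1 (0.05) and the nucleotide receptor P2ry6 (0.06). For scale, the root mean square of the centred Errfi1 values was 0.18. Plvap read 474.5, 529.1 and 516.2 in Ihh-ablated uteri and 379.6, 461.0 and 388.7 in control uteri, with control replicate 2 highest in its group as for Errfi1. None of the 5 passed the test on its own (limma adjusted p from 0.0716 to 0.241).

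Other genes of the pathway were read from a list of 62, of which 55 had a probe set with 1 symbol and 52 were tested. Of these, 4 rose, 1 fell and 47 did not pass, against 2.81% called over all genes. The median log2 difference was 0.11, beside -0.04 over all genes, 33 (63.5%) were above 0 against 43.3% of all genes, and 20 (38.5%) had an unadjusted p under 0.05 against 24.2% of all genes. The groups did not overlap in 25 of the 52, 19 of them higher, against 32.3% of all tested genes (13.3% higher). The calls were those of Gab2, Pik3r1, Fos, Spry1 and Ccnd1.

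Upstream of the receptors, 0 of 4 tested genes among the other receptor and ligands and 0 of 4 genes of ligand release passed. Nrg4, a neuregulin ligand of the receptor Erbb4, read 198.9, 169.1 and 243.5 in Ihh-ablated and 113.2, 132.5 and 172.9 in control uteri (0.55, limma adjusted p = 0.141). Erbb4 itself differed by -0.38 (adjusted p = 0.264), with overlapping groups. Of the release genes, the sheddase Adam10 differed by 0.10 (0.420) and Rhbdf2, a regulator of the sheddase ADAM17, by -0.10 (0.567). The other Adam10 probe sets differed in sign, at 0.54 (0.103) and 0.39 (0.106) without overlap and at -0.18 (0.668) with overlap. None of them passed.

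Among 11 adaptors and receptor-proximal enzymes, Gab2, a docking protein that recruits PI3-kinase and the phosphatase SHP2, rose and 10 genes did not pass. Gab2 read 747.7, 813.9 and 801.4 in Ihh-ablated uteri, against 561.1, 544.9 and 637.7 in control uteri, without overlap (log2 0.44, SE 0.09, limma adjusted p = 0.0452), but its other probe sets read -0.11 (0.686) and 0.02 (0.939). Ptpn11, which encodes SHP2, differed by 0.16 (0.173) and the adaptor Nck1 by 0.25 (0.174). Of 6 PI3K-AKT genes, Pik3r1, the regulatory subunit of PI3-kinase, rose, with 1585, 1479 and 1556 in Ihh-ablated and 1186, 1193 and 1151 in control uteri. The gap between the groups was wide beside the spread within each (log2 0.39, SE 0.07, adjusted p = 0.0209). A further Pik3r1 probe set was also called (0.43, 0.0403), while 0.38 (0.181) and 0.17 (0.477) did not pass. The catalytic subunits Pik3ca (0.28, adjusted p = 0.149) and Pik3cb (0.53, 0.182) did not pass.

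None of 5 tested genes of the RAS-ERK cascade passed. Map2k1, the kinase that activates ERK, read 794.6, 856.4 and 830.1 in Ihh-ablated and 690.8, 590.1 and 684.0 in control uteri (0.34, limma adjusted p = 0.0900), and its relative Map2k2 differed by -0.19 (0.224). Of 8 receptor turnover genes 0 passed, with the endosomal deubiquitinase Usp8 at 0.25 (0.166) and Rnf41, a ubiquitin ligase for ERBB3, at -0.45 (0.181).

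Among 14 tested ERK response genes 2 rose, 1 fell and 11 did not pass. Spry1, a feedback inhibitor of receptor tyrosine kinase signalling, read 367.1, 359.0 and 354.1 in Ihh-ablated and 220.8, 211.4 and 264.8 in control uteri. It rose 1.56-fold without overlap (log2 0.64, SE 0.11, limma adjusted p = 0.0270). Fos, an immediate early transcription factor that also responds to handling of tissue, read 945.8, 656.1 and 669.0 in Ihh-ablated and 255.1, 373.9 and 457.8 in control uteri (log2 1.08, SE 0.21, adjusted p = 0.0382), with Ihh-ablated replicate 1 well above the rest. Ccnd1, the cyclin D1 that growth factors induce in early cell cycle, read 1156, 1212 and 1031 in Ihh-ablated and 1538, 1450 and 1476 in control uteri. It fell by 0.40 on the log2 scale (adjusted p = 0.0389; -0.30 and 0.150 with median-centred arrays), and its other probe sets fell by 0.55 (0.00985) and 1.02 (0.0206). The 9 proliferation markers summed to 2024 to 2319 in Ihh-ablated and 5602 to 6695 in control uteri beside it. Of them 9 of 9 were lower in every Ihh-ablated array, against 2949 of 15530 tested genes. All 9 were called lower (limma adjusted p up to 0.0155), against 238 of 15530 tested genes. The part of these markers in the Ccnd1 value was not tested. The response genes Ier3 (0.44, 0.0873) and Etv5 (0.41, 0.126) did not pass. Each of these 5 pathway calls was lost without each of the 3 Ihh-ablated arrays in turn, without control replicate 1 and without control replicate 2 (adjusted p from 0.0505 to 0.167), and each was kept without control replicate 3.

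**Figure D4:**
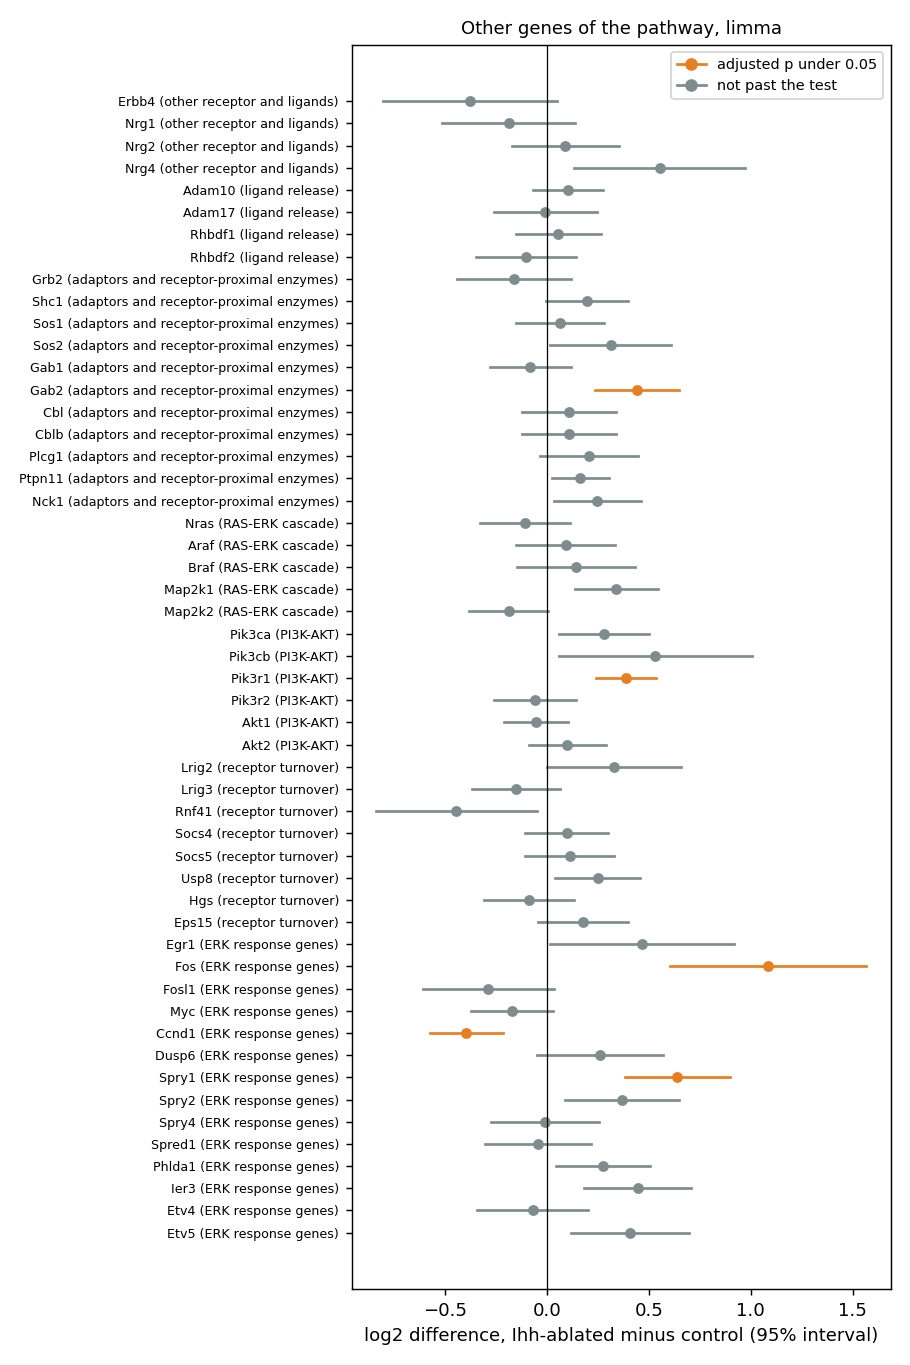
Log2 difference between Ihh-ablated and control uteri for the 52 tested genes of the pathway by role, as a point with its 95% interval from limma (brightest probe set per gene). The 4 rises (Gab2, Pik3r1, Spry1 and Fos) and the fall of Ccnd1 are orange, and the other 47 are grey.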

How the data were processed

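Total RNA of mouse uterus was hybridised to Affymetrix arrays as biotinylated cRNA, per the labels. Groups and replicate numbers came from the sample titles; the source field names another mouse model, which conflicts with titles, genotypes and design text. The deposited file holds linear intensities per probe set as processed by the authors. Which software, background correction and normalization they used is not given in the sources used here, and background handling would matter most for dim probe sets. Control probe sets (64 of 45101) were left out and intensities under 16 set to 16 before log2 (0 values of the members). Array medians differed by 0.231 on the log2 scale, under the limit of 0.3 for renormalization. The lowest 25% of probe sets by mean log2 (intensity under about 71.4) were not tested. Genotypes were compared with limma 3.58.1 (R 4.3.3; lmFit, eBayes with an intensity trend) and Benjamini-Hochberg adjustment over 33777 probe sets. The brightest probe set stood for a gene.

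Named were all members, called pathway genes with up to 2 further ones of lowest p per role, and 5 nearest patterns. Members and lists were chosen with earlier results of these data known. In data simulated from the comparison of Ihh-ablated with control arrays (33777 probe sets), calls were made for 20 of 100 simulated 1.5-fold changes and 65 of 100 simulated 2-fold changes, with 0 false calls. The simulated noise was normal and independent between probe sets, and only these changes were added. It held no variation shared by many probe sets, such as that of other-tissue transcripts, so these counts need not hold for the real arrays. Figures used matplotlib 3.10.9 in Python 3.11.15. The precision is limited by 3 arrays per group. Alternatives changed normalization, floor, filter, variance model, block, arrays and the probe set rule.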

Additional observations from a re-analysis of the deposited data

How the results depend on the processing

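Signs of both Errfi1, both Hbegf and the 6 tested Egfr probe sets were the same in all alternatives in which each was tested, whereas those of Erbb2, Egf, Ereg, Tgfa and the dimmest Lrig1 probe set changed in 2 to 4 of them and that of the brighter Erbb3 probe set with the epithelial covariate, always without a call. The 2 called member probe sets and 1 called member gene became 1 and 0 after quantile normalization, where the 1 was Hbegf 1418349_at (adjusted p = 0.0318) and both Errfi1 probe sets lost their calls (0.0847 and 0.0834). They became 0 and 0 without a filter, without an intensity trend and with the adipocyte or epithelial marker mean as a covariate (both chosen after seeing the data), and 5 and 2 with array weights. Leaving out 1 array gave 0 to 4 member probe sets, 0 to 2 member genes, 0 to 8 pathway genes and 148 to 3582 probe sets in all. Without the pair of arrays with other-tissue transcripts these counts were 1, 1, 6 and 1981, and both Errfi1 probe sets lost their calls (adjusted p = 0.0796 and 0.0729) while Erbb3 gained one (0.64, 0.0397). Pathway calls, 5 by the chosen settings, were 3 after quantile normalization (Gab2 and Fos lost, 0.0647 and 0.0567), 4 with median-centred arrays, all higher (Ccnd1 and Gab2 lost, 0.150 and 0.0743, and Ier3 gained, 0.0461), 2 without a filter, 1 without an intensity trend, 3 with the mean of all probe sets of a gene and 0 with either covariate. All calls numbered 724, but 1411 with array weights, 374 without an intensity trend, 23 and 64 with the adipocyte and epithelial covariates and 1562 with the replicate block. Their split of 348 higher and 376 lower was 286 and 201 with median-centred arrays. The replicate block gave 2 member probe sets, 1 member gene and 6 pathway genes. The labels give same-numbered arrays only a number in common, and whether they shared a batch was not tested. The correlations of the deviations of same-numbered arrays from the group means were -0.152, -0.0432 and 0.249. Ihh-ablated replicate 1 correlated best with control replicate 2 (0.319), and Ihh-ablated replicate 2 with control replicate 1 (0.0882). Only Ihh-ablated replicate 3 correlated best with its own number. The cause of these changes was not tested. Some alternatives also have fewer samples or degrees of freedom, and the part of these was not tested either. Dim probe sets, Btc above all, are limited by the unstated background.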
